A study of Mus musculus with 3 samples.

Results

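The windows described here are stretches of 10 kb of the mouse genome that gave an intermediate number of small RNA reads in adult testis. They were chosen from the testis library alone: the genome was tiled in 10 kb windows from the start of each chromosome, a read was placed by its left end, and a window was kept when it held 100 to under 3000 reads per 1000000 library reads (RPM) in testis, lay off the mitochondrial genome and lay outside 7 regions that hold the best-known testis clusters. This rule gave 192 windows of 24439 with any testis read and of 119249 with a read in any of the 3 libraries. The testis levels are therefore a description of the choice and not a finding. What the rule did not use is the length of the reads, the position of their ends within a window, and everything in the other libraries.

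The series holds 3 small RNA libraries, 1 per group, with no treatment. The first was made from RNA that came down with an anti-MIWI2 antibody from MEL cells, a mouse erythroleukemia line of Friend virus-transformed erythroblasts. The second was made in the same way from unfractionated splenocytes of C57Bl6/J mice aged 10 weeks. The third came from the testis of C57Bl6/J mice aged 10 weeks and used no antibody: RNA of about 29 nt was purified from total RNA by taking that band from a gel of 18% polyacrylamide. The antibody was a rabbit polyclonal against MIWI2 (PIWIL4). An input or a control precipitate was not analysed here, so what came down with MIWI2 and what came down with the beads cannot be told apart. With 1 library per group the spread between replicates is unknown, no p-value is given, and 95% intervals (exact binomial) cover counting error only.

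PIWI-interacting RNAs (piRNAs) are germline small RNAs longer than microRNAs that guide PIWI proteins to transposon and other transcripts. They are cut from long single-stranded precursors, which in the adult mouse testis come from a limited number of clusters, some of them copied from a shared start in opposite directions. The 5′ end of a piRNA is set by the first cut, whereas the 3′ end is trimmed back to a length that depends on the PIWI protein that holds it: MILI holds shorter piRNAs than MIWI, and MIWI2 is best known from fetal male germ cells. For that reason reads of 25 to 28 nt were set against reads of 29 to 32 nt, and the ends of the reads were examined beside their lengths.

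The libraries held 823452 (MEL), 692011 (spleen) and 1143785 (testis) mapped reads, of which 242069, 59404 and 1050958 were 25 to 32 nt long. Over each whole library, 29 to 32 nt reads made up 10.6% of the MEL, 60.2% of the spleen and 81.9% of the testis reads of 25 to 32 nt. A window with fewer than 3 reads was set at 3 reads, or 3.64 RPM for MEL, 4.34 RPM for spleen and 2.62 RPM for testis.

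The 192 windows lay on 17 numbered chromosomes, the X chromosome and 1 unplaced sequence, with 24 on chromosome 10, 20 on chromosome 6, 19 on chromosome 13 and 16 on chromosome 7. Of these windows, 73 bordered another of the set and 42 bordered a window of 3000 RPM or more, while 84 bordered neither. None bordered the 7 regions left out. The longest unbroken runs were of 4 windows, at chr10:18510001-18550000, chr6:87910001-87950000 and chr6:128120001-128160000. Gene annotation of the build that the files use was not used here, so no gene is named.

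In testis the windows ran from 100.5 to 2947 RPM with a median of 509.3, and together they held 179884 reads, 15.7% of the library. The 3 windows just inside the lower limit had 115 to 117 testis reads and the 3 just outside it had 110 to 113. At the upper limit, the 3 windows just inside had 3223 to 3371 testis reads and the 3 just outside had 3482 to 3674. Both limits thus fell in a continuous range of levels. The number of distinct left ends that testis reads had in a window ran from 2 to 862 with a median of 162, so most windows were read at many positions. In 182 of the 192 windows the most frequent testis read length was 29 to 32 nt. This held in 64 of 64 windows of 3000 RPM or more and in 764 of 901 windows of 10 to under 100 RPM. Over all 24439 windows with a testis read it held in 12284. The testis band was cut near 29 nt, so this length was set in part by the gel.

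The remaining 10 windows departed from it. In 6 of them no testis read was 25 to 32 nt long, and the stacks there were of shorter reads. At chr13:38720001-38730000, for example, 257 testis reads shared a single interval of 16 nt. In 2 others, chr2:119120001-119130000 and chr5:125310001-125320000, the most-read testis interval was 21 nt long, with 1 and 12 testis reads of 25 to 32 nt. These 8 windows meet the rule by their read number but are not piRNA windows by length. The last 2, chr1:34650001-34660000 and chr5:130620001-130630000, were read most often at 26 and 18 nt but also held 201 and 696 testis reads of 25 to 32 nt, with 29 to 32 nt shares of 30.3% and 76.0%.

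A further 9 windows held testis reads of piRNA length on very few positions and at nearly the same number of reads on different chromosomes. A single interval of 30 nt carried 1284 testis reads in chr1:173030001-173040000, 1217 in chr10:30530001-30540000 and 1287 in chr3:96960001-96970000. The MEL reads that shared its left end numbered 671, 670 and 685, and the spleen reads 412, 344 and 373. In the other 6 windows, on chromosomes 1, 3, 11 and 13, a 30 nt interval carried 309 to 336 testis reads. How reads with several matches in the genome were placed is not given in the sources used here, and whether these windows share their reads was not tested.

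Altogether 18 windows stood apart: 16 with fewer than 20 distinct testis left ends, and the windows chr1:172990001-173000000 and chr1:173000001-173010000, which had 23 and 33 left ends, carried 3 of the near-equal stacks and were added after their values were seen. Of all reads in the 192 windows, these 18 took 6.02% in testis but 69.2% in MEL and 93.0% in spleen. A pair of windows, chr4:39890001-39900000 and chr15:80500001-80510000, accounted for 84.0% of all spleen and 25.8% of all MEL reads in the set, and had no read of 25 to 32 nt in any library. Results that rest on these 18 are given below also for the other 174 windows.

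**Figure D1:**
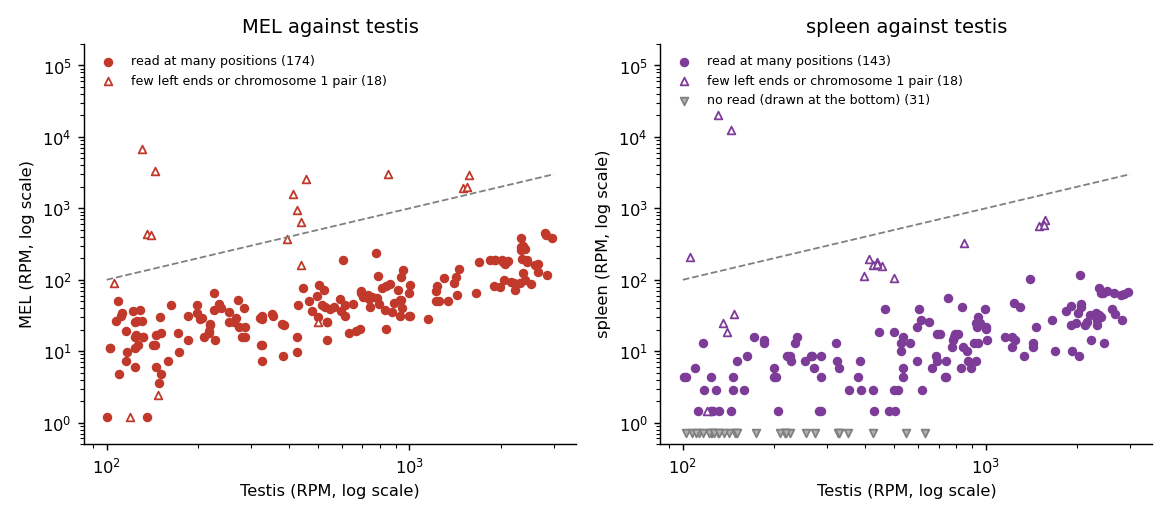
Level of each of the 192 windows in MEL (left) and spleen (right) on the vertical axis against testis on the horizontal axis, in RPM on log scales, with the line of equal level dashed. Filled circles are the 174 windows read at many positions, open triangles the 18 windows that stand apart, and grey triangles the 31 windows with no spleen read; all circles lie under the line.

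Levels in MEL ran from 1.21 to 6809 RPM with a median of 43.7, and in spleen from 0 to 20469 RPM with a median of 10.8. MEL had a read in all 192 windows, and fewer than 3 reads in 4 of them. Spleen had no read in 31 windows and fewer than 3 in 54. Where a spleen window held no read, a level of up to 4.34 RPM is allowed by a count of 0. The 174 windows held 9998 MEL reads, 1899 spleen reads and 169060 testis reads, which is 1.21%, 0.274% and 14.8% of the libraries.

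Testis was 4-fold or more higher than MEL in 168 of the 192 windows, against 11.9% of the windows with 10 RPM or more in either library, and 4-fold or more higher than spleen in 179, against 9.45%. The reverse, 4-fold or more higher than testis, held in 3 windows for MEL, against 76.6%, and in 2 for spleen, against 72%. Because a high testis level was the condition for entry, nothing is read from these shares. The median window was 11.8 times higher in testis than in MEL, and 43.8 times higher than in spleen with windows under 3 reads set at 3 reads. Counted on 25 to 32 nt reads alone and scaled to those reads, the medians were 4.87 for MEL and 4.20 for spleen, so the size of these ratios and the order of MEL and spleen depend on the reads used for scaling. On all reads, MEL exceeded testis in 12 windows and spleen in 3, and all of these belonged to the 18 that stood apart. In the 174 windows the lowest testis level relative to MEL was 2.14-fold and relative to spleen 8.94-fold.

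The 174 windows were divided by testis level into 3 classes. The 62 windows of 100 to under 300 RPM summed to 10851 RPM in testis, 1407 in MEL and 231.2 in spleen. The 64 windows of 300 to under 1000 RPM summed to 40585, 3252 and 802 RPM, and the 48 windows of 1000 to under 3000 RPM to 96372, 7482 and 1711 RPM. The sums in both precipitates were larger in the classes with more testis reads. No ratio to testis is compared across the classes, since they were formed by the testis level. Windows with fewer than 3 spleen reads numbered 37, 16 and 0 in that order, so spleen lengths could be read only in the higher classes. Across the 174 windows the Pearson correlation of log2(reads + 1) with the 29 to 32 nt reads of testis was 0.86 for the 29 to 32 nt reads of MEL, 0.74 for the 25 to 28 nt reads of MEL and 0.74 for the 29 to 32 nt reads of spleen. These coefficients describe windows of the same 3 libraries. Windows of a library share its depth and are not replicates.

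The main difference lay in read length. In MEL the reads of the windows were short: 20.1% (19.4 to 20.8) of the 25 to 32 nt reads were 29 to 32 nt long, or 2784 of 13841. In testis the same share was 82.4% (82.2 to 82.6), or 135457 of 164337, and in spleen it was 83.7% (82.3 to 85.1), or 2402 of 2869. In the 174 windows the shares were 22.3% in MEL, 79.2% in spleen and 82.0% in testis. MEL therefore differed from both other libraries by more than counting error, and spleen lay slightly above testis over all windows and slightly below it in the 174. The testis band was cut near 29 nt, so its length range was set in part by the gel, and tissue and size selection cannot be told apart.

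**Figure D2:**
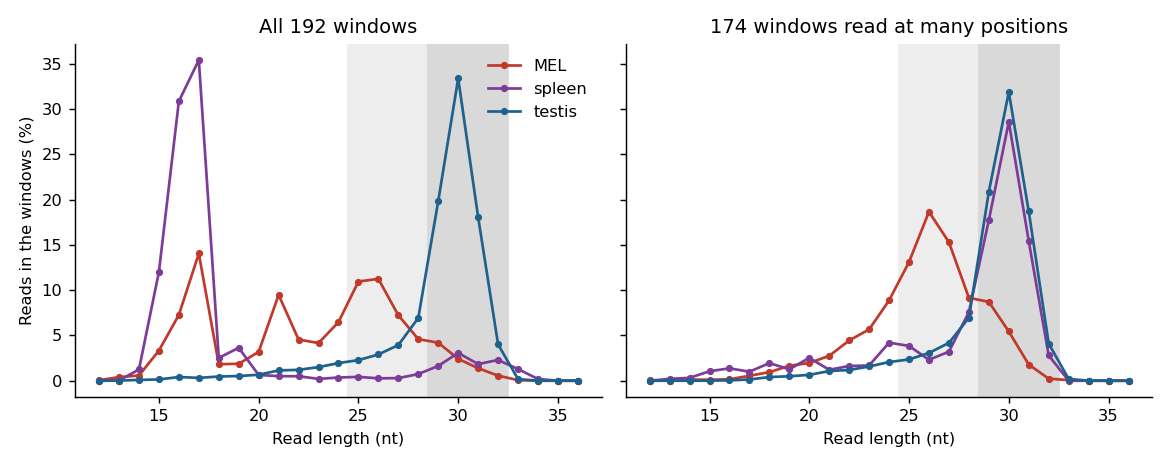
Share of the reads in the windows at each read length in MEL, spleen and testis, for all 192 windows (left) and the 174 read at many positions (right), with 25 to 28 nt in light and 29 to 32 nt in darker grey. Testis and spleen peak at 30 nt in the right panel and MEL at 26 nt, and the spleen peak under 18 nt in the left panel comes from the windows that stand apart.

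By length class, the 25 to 28 nt reads of MEL came closest to testis. In the 174 windows they summed to 6827 RPM in MEL and 24485 RPM in testis, so that testis was 3.59-fold higher. For 29 to 32 nt reads the sums were 1964 and 111687 RPM, a ratio of 56.9. Spleen gave ratios that were alike in both classes, 52.6 for 25 to 28 nt and 63.0 for 29 to 32 nt. Over all 192 windows the ratios were 1.88 and 35.0 for MEL and 37.4 and 34.1 for spleen. These levels are scaled to all reads of a library, of which reads of 25 to 32 nt are a small part in spleen and nearly all in testis. Scaled to the 25 to 32 nt reads, the ratios in the 174 windows were 1.15 and 18.2 for MEL and 4.92 and 5.89 for spleen. Over all 192 windows they were 0.602 and 11.2 for MEL, so that 25 to 28 nt reads were then higher in MEL, and 3.50 and 3.19 for spleen. On either scale the ratio of testis to MEL was far larger for the long class than for the short one, and the ratios for spleen were close.

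The same held window by window. In 113 windows both MEL and testis had at least 20 reads of 25 to 32 nt, and the 29 to 32 nt share was lower in MEL in 113 of 113, with intervals that did not overlap in 111. Among all 254 windows of the series with that depth the share was lower in MEL in 99.6% and higher in 0.394%. It was lower with intervals that did not overlap in 250 of the 254. Direction and separation are thus those of the libraries as a whole and not particular to these windows. The MEL share had a median of 22.2% and ran from 0% to 84.0%, whereas the testis share in the same windows had a median of 82.3% and ran from 58.4% to 94.7%. The mean read length was shorter in MEL by a median of 2.39 nt.

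Spleen did not part from testis in one direction. In 33 windows both had at least 20 reads of 25 to 32 nt. The 29 to 32 nt share was lower in spleen in 15 of them and higher in 18, with intervals apart in 4 and 5 windows. Among all 133 windows of the series with that depth, 48.1% were lower and 51.9% higher in spleen, with intervals apart in 24 and 19 windows. In the 174 windows the share was lower in 11 of 24. The spleen share had a median of 88.1% and ran from 20.7% to 100%.

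**Figure D3:**
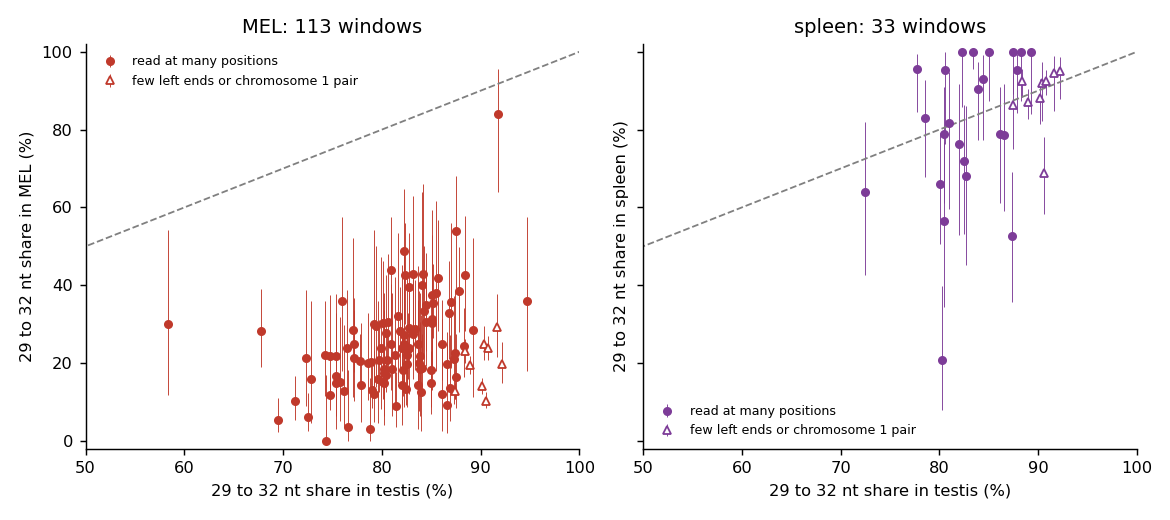
Share of 29 to 32 nt among 25 to 32 nt reads in MEL (left, 113 windows) and spleen (right, 33 windows) against the share in testis, in percent, with exact 95% binomial intervals as bars and the line of equal share dashed. The MEL values lie under the line in all 113 windows, and the spleen values lie on both sides of it.

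In the 7 regions that the rule left out, and in the windows above the upper limit, MEL again had mostly short reads and the others mostly long ones. In MEL the share of 29 to 32 nt reads was 19.5% (19.0 to 20.1) in the 7 regions and 27.5% (26.8 to 28.2) in windows of 3000 RPM or more, beside 22.3% (21.4 to 23.3) in the 174 windows, with intervals that did not overlap. By window, the MEL medians were 23.7%, 29.5% and 22.2% in that order, over 43, 64 and 104 windows. The 7 regions were thus lowest in the pooled reads but not by window. In spleen the pooled share was 81.4% and 79.3%, beside 79.2%, and in testis 81.0% and 82.9%, beside 82.0%. Windows of 10 to under 100 RPM in testis, from which windows with few left ends were not removed, had pooled shares of 7.76% in MEL, 27.7% in spleen and 80.4% in testis. The spleen value rests on few windows: 504 of those 901 windows had no spleen read, and the 3 deep enough in both spleen and testis had a median spleen share of 78.3% (36.2% to 84.0%). Within the 174 windows the MEL share was 19.2% (16.5 to 22.1) at 100 to under 300 RPM, 21.5% (19.7 to 23.4) at 300 to under 1000 and 23.3% (22.0 to 24.5) at 1000 to under 3000. The intervals of all 3 classes overlapped.

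The windows with most testis reads show how the libraries differ at a single place. The window chr15:74460001-74470000 had 3371 testis, 321 MEL and 47 spleen reads, and 29 to 32 nt shares of 80.1%, 15.2% and 66.0%. The window chr12:99620001-99630000 had 3267, 97 and 44 reads, and shares of 86.1%, 25% and 78.8%. The window chr4:135180001-135190000 had 3223, 348 and 19 reads, and shares of 74.7%, 11.8% and 47.4%. In each of these MEL had the lowest share, with spleen between MEL and testis. In 3 more of the 10 windows with most testis reads, chr8:95940001-95950000, chr8:112650001-112660000 and chr5:115300001-115310000, all spleen reads of 25 to 32 nt (27, 32 and 8) were 29 to 32 nt long.

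Windows differed among themselves in the MEL share by more than counting error. Of the 31 windows with at least 100 MEL reads of 25 to 32 nt, the highest shares were 35.5% at chr12:99670001-99680000 (107 reads), 29.2% at chr13:18300001-18310000 and 29.1% at chr10:127130001-127140000. The lowest were 5.47% at chr17:49250001-49260000 (128 reads) and 6.14% at chr8:119730001-119740000 (114 reads). The testis share in these last 2 windows was 69.5% and 72.5%, under the testis median, so they were short in both libraries. Over the 104 windows of the 174 with at least 20 MEL reads, the Pearson correlation of the MEL share with the testis share was 0.40 and the Spearman correlation 0.41, given as a description. Among windows with fewer MEL reads and chosen after their values were seen, chr4:123570001-123580000 had a MEL share of 84.0% (63.9 to 95.5) from 25 reads, and chr8:112650001-112660000 one of 54.0% (39.3 to 68.2) from 50 reads.

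In spleen, 6 of the 33 windows with at least 20 reads had only 29 to 32 nt reads among those of 25 to 32 nt. Among all 133 windows of the series with that depth in spleen and testis, this held in 13. The deepest of the 6 was chr6:85930001-85940000, with 81 of 81 reads. The lowest spleen share was 20.7% at chr1:93300001-93310000, from 29 reads, where testis had 80.3%. Spleen reads lay on few positions: the 1899 spleen reads of the 174 windows fell on 513 distinct intervals, or 3.70 reads per interval, against 1.38 in MEL and 2.83 in testis. Each spleen share therefore rests on fewer positions than its read number implies, and the number of independent molecules behind it is not known.

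The largest testis levels relative to MEL, among windows with at least 10 MEL reads, were 41.3-fold at chr11:50750001-50760000 and 40.7-fold at chr9:51650001-51660000, which had 23 and 17 MEL reads. The smallest were 0.0193-fold at chr4:39890001-39900000 and 0.0428-fold at chr15:80500001-80510000, the pair of windows filled by very short reads. The next smallest were chr1:172990001-173000000 and chr3:96300001-96310000, both among the 9 windows with near-equal stacks. Relative to spleen, the largest levels with at least 10 spleen reads were 154.2-fold at chr10:18510001-18520000 and 102.6-fold at chr4:135180001-135190000. In the former, testis had 2549 reads, MEL 59 and spleen 10.

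Because a piRNA's 5′ end is set and its 3′ end trimmed, reads of different length that start together share that end, and the files show which end without giving the strand. For each window all pairs of distinct 25 to 32 nt intervals that shared exactly 1 end were counted, and the share of pairs with a common left end was taken. This measure was chosen after the data were seen. A window was called left-fixed at 70% or more, right-fixed at 30% or less, with at least 10 pairs.

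In testis the windows fell into 2 groups with few between. Of 184 windows with enough pairs, 80 were left-fixed, 88 right-fixed and 16 lay between the limits. The share of pairs with a common left end ran from 3.45% to 91.2%. In the 174 windows the counts were 77, 82 and 15. No such count over all windows of the series is given here, so these counts are not read as particular to the set. In most windows 70% or more of the pairs thus shared the same end, left or right in about equal numbers. Few windows were near either extreme: of the 184, 4 lay at 90% or more and 8 at 10% or less.

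MEL left-end shares lay on the same side of 50% as those of testis. In 62 windows MEL also had at least 10 pairs, and the side of 50% was that of testis in 61 of the 61 windows where MEL lay off 50%, while 1 window lay at 50%. By the limits of 70% and 30%, MEL was left-fixed in 25 of the 62, right-fixed in 23 and between the limits in 14. In all windows of the series with enough pairs the side was the same in 98.4%, so this too is not particular to the windows. In the 174 windows it was the same in 52 of 52. In spleen only 9 windows had enough pairs, and 9 of 9 had the side of testis. In all windows it was 85.0%, or 17 of 20, and those 20 include the 9. None of these 9 was among the 174. They are the 9 windows with near-equal stacks, and whether those share their reads was not tested, so they may not be separate observations.

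**Figure D4:**
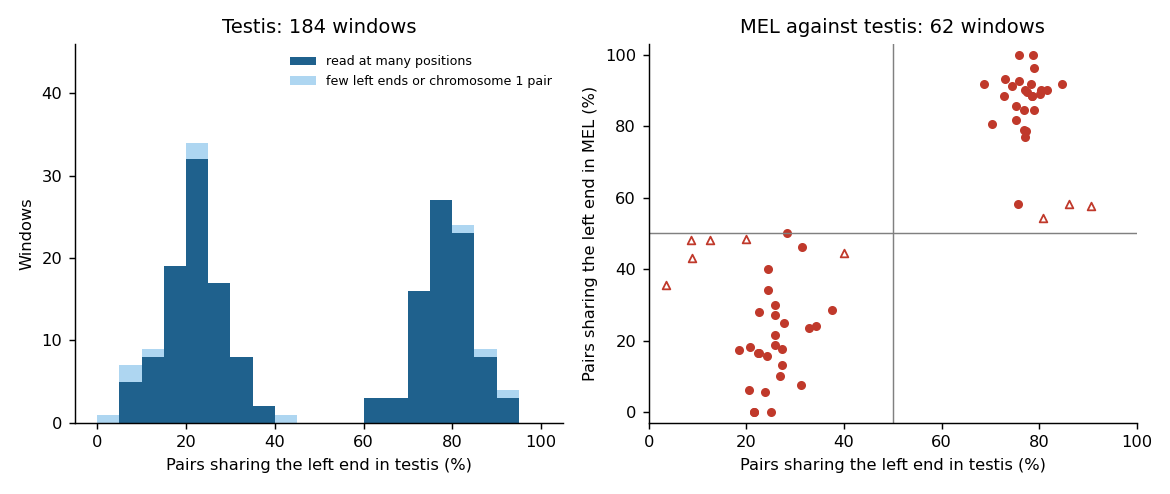
Share of interval pairs with a common left end, in percent: number of windows by their testis value (left, 184 windows in bars of 5 points) and MEL against testis (right, 62 windows, with lines at 50%). Testis values form groups under 45% and over 60%, and MEL values fall on the same side of 50% as testis in 61 windows, with 1 at 50%.

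Neighbouring windows tended to keep the same side. Members and windows of 3000 RPM or more that lay next to each other, or with 1 window between, were joined into 129 regions with at least 1 member. Fewer than 2 windows had a side in 82 of these. Of the other 47 regions, all windows with a side were left-fixed in 18 and right-fixed in 20, and 9 changed from right-fixed to left-fixed with rising coordinate. Windows without a side lay in 1, 2 and 6 of these regions. Among windows with a side, no region changed from left-fixed to right-fixed, or more than once.

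The 9 regions that changed side were chr7:77020001-77090000, chr7:80240001-80300000, chr7:80920001-80990000, chr7:132470001-132510000, chr9:54050001-54110000, chr10:86030001-86090000, chr12:99620001-99690000, chr15:59080001-59130000 and chr17:66500001-66580000. They held 25 of the 192 windows. At chr12:99620001-99690000 the windows in order had left-end shares of 26%, 25%, 25%, 35%, 79%, 78% and 75% in testis, and of 19%, 19%, 15%, 36%, 90%, 88% and 100% in MEL. The last MEL value rests on 7 pairs, under the minimum of 10. In this region the change fell between the same windows in both libraries. Over the 9 regions, MEL had at least 10 pairs in 17 right-fixed windows, where its left-end share was 0% to 19.5%, and in 12 left-fixed windows, where it was 78.3% to 93.8%. Most of these windows had 3000 RPM or more in testis and so lay outside the 192. Without strand, which direction a precursor was copied in was not tested.

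**Figure D5:**
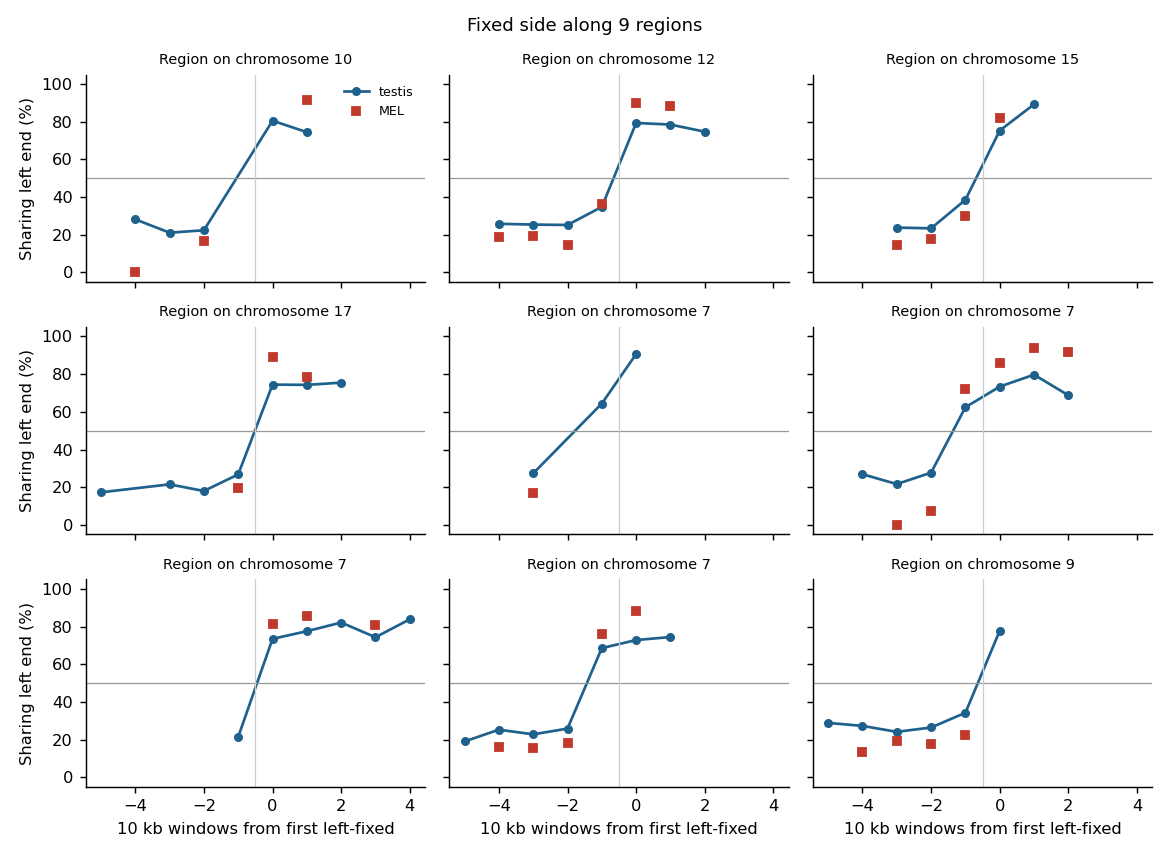
Share of interval pairs with a common left end, in percent, along the 9 regions that changed side, with windows numbered from the first left-fixed one (10 kb each), testis as blue circles and MEL as red squares where MEL had at least 10 pairs. Testis values cross 50% once in each of the 9 regions. MEL values lie on both sides of 50% in 6 of them and, in all 35 windows where they are shown, on the side of testis. Most of these 35 windows had 3000 RPM or more in testis and are not members of the set.

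MEL reads mostly met testis at both ends, and among those that met it at 1 end it was mostly the fixed one. In the 159 windows of the 174 with a testis side, 75.7% (74.7 to 76.7) of the 6895 MEL reads of 25 to 32 nt had their fixed-side end at a position where a testis read of 25 to 32 nt also had it, and 62.6% had the other end in common. Both ends were met by 57.8% of the reads. Reads that met testis at the fixed end alone made up 17.9%, and those that met it at the other end alone 4.80%. When each distinct interval was counted once, 940 MEL intervals met testis at the fixed end alone and 285 at the other end alone. Over all 168 windows with a side, where the 8 windows of few left ends supplied 4391 of 12477 reads, the shares were 58.7% and 59.3%. The larger share at the fixed end thus holds for windows read at many positions.

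At shared fixed ends the MEL reads were mostly shorter in windows read at many positions. Of the MEL reads of 25 to 32 nt that shared the fixed end with testis in the 159 windows, 74.0% were shorter than the most frequent testis length at that end and 19.3% had that length, with a median difference of -2 nt. Of the spleen reads of 25 to 32 nt, 88.4% (86.6 to 90) shared the fixed end. Among those, 32.7% were shorter than the most frequent testis length and 51.7% had it, with a median difference of 0 nt. In the 159 windows MEL reads at shared ends were thus more often shorter than those of testis, and spleen reads most often had the testis length. Over all 168 windows with a side, 58.5% of such MEL reads were shorter, with a median difference of -1 nt. The 8 windows of few left ends differed. There 26.2% of the MEL reads were shorter, 34.9% had the testis length and 38.9% were longer, with a median difference of 0 nt. Of the spleen reads there, 62.2% were longer. Within a length class the libraries were closer in the 159 windows, since the class itself limits the difference. Of the 25 to 28 nt reads at shared ends, 87.8% were shorter in MEL and 78.0% in spleen, and of the 29 to 32 nt reads 51.5% had the testis length in MEL and 58.5% in spleen.

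Single positions varied. Some of the most-read fixed ends of the 10 windows with most testis reads carried shorter MEL reads. At the left end chr4:135185752, testis had 427 reads of 25 to 32 nt, 224 of them 25 to 28 nt and 203 of them 29 to 32 nt, with 28 nt the most frequent length. MEL had 40 reads there, 36 of them 25 to 28 nt, most often 27 nt, and all 10 spleen reads were 28 nt long. At the left end chr10:75320682, testis had 335 reads with 252 of them 30 nt long, and MEL had 16, of which 8 were 27 nt and 4 were 30 nt. In both places the MEL reads were on the whole shorter.

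The 3 ends with most testis reads among those 10 windows did not show it. At the left end chr8:112654347, testis had 1008 reads, 770 of them 30 nt long, and the 4 MEL reads were 29 or 30 nt. At the right end chr14:45398503, testis had 488 reads, 369 of them 31 nt long, 8 of the 9 MEL reads were 29 to 32 nt, and all 10 spleen reads were 31 nt. At the right end chr12:99626209, testis had 519 reads, the single MEL read was 32 nt and all 7 spleen reads were 31 nt. These ends carry few MEL reads, so counting error is large for each.

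Next, single fixed ends were compared in windows read at many positions, without the 8 windows of few left ends. At the 411 ends with at least 3 reads in both MEL and testis, in 100 windows, the mean length was shorter in MEL at 387. The 29 to 32 nt share at these ends was 20.7% (19.1 to 22.4) in MEL and 79.1% (78.7 to 79.6) in testis, as far apart as over the windows in full. At the 36 ends with at least 3 reads in each of the 3 libraries, the mean was shorter than in testis at 35 ends in MEL and at 18 in spleen. The 29 to 32 nt shares there were 33.7% in MEL, 69.1% in spleen and 82.3% in testis. The difference in length between MEL and testis was therefore present at identical fixed ends and not only between positions.

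Within testis itself, 75.2% of the 25 to 28 nt reads of those windows had a fixed end that also carried a 29 to 32 nt read, against 34.8% at the other end. The same reads set the fixed side, so this is a description. In MEL the values were 18.4% and 3.40%, so short MEL reads seldom had a long MEL read at the same end. The MEL library had 1511 reads of 29 to 32 nt there and far fewer than testis, and the part of the read number in this difference was not tested.

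Left-fixed and right-fixed windows lay closer together in testis than in MEL and spleen. The 29 to 32 nt share was 81.1% (80.8 to 81.4) in the 77 left-fixed and 82.3% (82.0 to 82.6) in the 82 right-fixed windows of the 174 in testis. In MEL it was 19.6% (18.4 to 20.9) and 24.9% (23.4 to 26.5), and in spleen 74.3% (70.9 to 77.6) and 85.2% (82.5 to 87.7). The pooled intervals do not overlap between sides in any library, but reads of a window share their source, and the window ranges of the sides overlapped. The window medians were 20% and 23.2% in MEL, over 47 and 48 windows, and 76.2% and 95.4% in spleen, over 11 and 12 windows.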

How the data were processed

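The files the authors deposited hold 1 line per mapped read (chromosome, start, end), with no strand, sequence or score. Mapping used Bowtie 0.12.7, per the submitters' processing notes. Its options, the trimming, how reads with several matches were placed, and the build: not given in the sources used here. Chromosome 7 carries reads as far as position 152523579, which does not match the build of the reference genome at hand, so no annotation was joined. Coordinates are counted from 1 as the files give them. Lines were counted per window, length and end with Python 3.11.15, numpy 2.4.6, pandas 2.3.3 and scipy 1.17.1, and scaled to RPM by all reads of the library. Reads carry no molecular identifiers, so copies count as separate reads.

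The counting was tested on simulated data: 200 of 200 planted windows were found, with 0 where none was planted. All planted windows lay within the RPM limits and had a single fixed side. The test therefore checks the counting only and does not cover stacks or reads with several matches. The windows and lists were chosen with earlier results of these data known. Named windows are the 10 with most testis reads, the 5 highest and lowest 29 to 32 nt shares and ratios per library at a minimum depth, the 3 nearest each limit and the longest runs, of which the text gives examples; any other is marked as chosen once its values were known. The end measure, its 70% limit and the set of 174 windows were chosen after the data were seen. Alternatives were distinct intervals, other lengths, 5 kb windows, other RPM limits, deeper windows, ends with at least 2 reads and an equal read number.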

Additional observations from a re-analysis of the deposited data

How the results depend on the processing

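No paired analysis was possible because each group had 1 library. Of 88 recomputed values, 34 stayed within their counting error (or within 1.5 times for counts) and 54 moved, 4 of them the ratios by length class given with those results; the 29 to 32 nt share was lower in MEL than in testis in every setting, and the cause of the moves was not tested. The 29 to 32 nt share in MEL became 25% with each distinct interval counted once, 26.0% for 28 to 31 among 24 to 31 nt, 22.0% without the most-read interval of each window, 22.5% in 5 kb windows and 22.3% in the 174 windows. In spleen it became 72.4% by interval, 80.6% without the most-read interval, 82.1% at a lower limit of 50 RPM, 80.1% in windows with at least 20 left ends and 79.2% in the 174. In testis it became 72.3%, 87.6% (28 to 31 nt) and 80.3% by the first 3 of these settings, 82.1% with at least 20 left ends and 82.0% in the 174. By interval, spleen and testis were thus equal within counting error. At a minimum of 50 reads the share was lower than in testis in 54 of 54 windows in MEL and in 4 of 10 in spleen; by interval it was lower in 2 spleen windows of 2.

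The share of the library in the windows moved under each setting. For 25 to 32 nt reads alone the MEL, spleen and testis shares were 5.72%, 4.83% and 15.6%; by interval 4.94%, 0.948% and 19.8%; in 5 kb windows 4.22%, 4.06% and 24.3%; and in the 174 windows 1.21%, 0.274% and 14.8%. For 25 to 32 nt reads alone, scaled to those reads, the median ratio of testis to MEL fell to 4.87 and that of testis to spleen to 4.20. A lower limit of 50 RPM gave 304 windows. Of the MEL reads of 25 to 32 nt, 61.3% had a left end and 58.7% a right end in common with testis. These became 59.3% and 59.6% by interval, 50.5% and 44.3% for testis ends with at least 2 reads, 59.4% and 55.5% with testis thinned to the read number of MEL, and 68.9% and 69.4% in the 174 windows. For spleen, 91.4% and 90.6% became 82.0% and 80.1%, 87.5% and 86.0%, 90.1% and 88.6%, and 87.1% and 86.2% in that order. With copies counted in place of distinct intervals, the side of 50% matched testis in 15 of 17 spleen windows and in 77 of 83 MEL windows. Depth limits spleen most: 54 of the 192 windows had fewer than 3 spleen reads and 33 had 20 or more of 25 to 32 nt.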
